A study of Mus musculus with 25 samples.

Results

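The mouse B lymphocyte genes described here, 9 in number, were followed across lungs that had received thoracic radiation, a compound acting on receptors for sphingosine 1-phosphate (S1P), both or neither. They were chosen by name: Ms4a1, Cd79a, Cd79b, Cd22, Blk, Pax5, Fcer2a, Cr2 and Cxcr5, each taken from probe sets annotated with that symbol alone and represented by the probe set of highest mean signal over 25 arrays. All 9 were among the 12937 genes tested, out of 18193 with such a probe set. Pax5 lay just above the limit on low signals, with a mean of 6.493 against a limit of 6.489 log2 units. Levels are given throughout as log2(signal + 16), and a difference of 1 on this scale is a 2-fold change of signal + 16.

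A B cell recognises antigen through a receptor made of membrane immunoglobulin and a signalling pair, Cd79a and Cd79b, whose cytoplasmic tails are phosphorylated by Src-family kinases such as Blk. Cd22 binds sialic acid and recruits phosphatases that dampen that signal, while Cr2, the complement receptor CD21, lowers the threshold for it as part of a coreceptor. Ms4a1 encodes the surface protein CD20, Fcer2a the low-affinity IgE receptor CD23, and Cxcr5 the chemokine receptor that guides B cells along Cxcl13 into follicles. Pax5 is the transcription factor that maintains B cell identity. In the lung, B cells are found in the blood of the vessels, in the tissue and in lymphoid aggregates along the bronchi. S1P, sensed by S1pr1 on lymphocytes, directs their exit from lymphoid organs into blood and lymph.

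The lungs came from female wildtype C57BL/6J mice, 14 to 17 weeks old and 20 to 25 g in weight, 1 mouse per array. Control mice received phosphate-buffered saline (PBS; n = 4). The groups fTyS, SEW and FTY (n = 3 each) were injected intraperitoneally 2 times a week with 0.1 mg/kg of (S)-FTY-phosphonate, SEW-2871 or FTY720. FTY720 becomes an S1P receptor ligand once it is phosphorylated in the animal, (S)-FTY-phosphonate carries a phosphonate where that ligand carries a phosphate, and SEW-2871 is an S1pr1 agonist of a different chemical scaffold. The radiation group (n = 3) received a single thoracic dose of 25 Gy, and the groups radiation+fTyS, radiation+SEW and radiation+FTY (n = 3 each) that dose and the same injections. The interval between irradiation and collection is not given in the sources used here. Whole-lung RNA was measured, so every level averages over all cell types of the organ.

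The signal medians of the arrays lay between 118 and 130, and 8 genes of lung epithelium and endothelium were at or above the 98.8th percentile of all probe sets. Arrays of 3 groups stood apart from the rest of their group. FTY replicate 3 held transcripts of immature T cells: Rag1, a recombinase of developing lymphocytes, read 11.91 there and between 4.09 and 4.79 on the other 24 arrays, and 6 of 8 thymus genes and 11 of 13 T cell genes were above every other array. The pre-B cell genes Vpreb1 and Igll1 were not. Control replicate 4 had a mean of 10.43 over 9 p53 target genes, a list added after the values were seen, whereas the other unirradiated arrays lay between 9.31 and 9.72 and the irradiated arrays between 10.28 and 10.46. Radiation replicate 1 held the lowest value of all 25 arrays for every one of the 9 B cell genes. Genes of skeletal muscle ranged from a mean of 6.53 to 12.42 and those of fat from 7.35 to 11.91, within groups as well as between them. For the 9 B cell genes, each of these arrays was left out in turn, and results that moved are given with and without it. Calls of list genes come from the fit of all 25 arrays and were not repeated without these arrays.

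RefSeq promoter windows (GRCm38.p6; 250 bases before to 50 after a transcript start) were at hand for 5 of the 9 genes, Cd79a, Cd22, Pax5, Fcer2a and Cr2. The Fcer2a and Pax5 windows are not printed, although these genes varied with the others too. Those of the other 3 genes, which varied together across the lungs, are shown, each at the start of a RefSeq transcript. They are Cd79a at chr7:24897247-24897546 on the plus strand, Cd22 at chr7:30878979-30879278 and Cr2 at chr1:195176670-195176969, both on the minus strand. They run 5′ to 3′ along the gene, and capitals mark matches on either strand to 4 motifs bound by factors of the B lineage, the octamer ATTTGCAT, the EBF core CCCNNGGG, the E box CAGGTG and the ETS motif GAGGAA; in these 3 windows no matches overlap.
Cd79a: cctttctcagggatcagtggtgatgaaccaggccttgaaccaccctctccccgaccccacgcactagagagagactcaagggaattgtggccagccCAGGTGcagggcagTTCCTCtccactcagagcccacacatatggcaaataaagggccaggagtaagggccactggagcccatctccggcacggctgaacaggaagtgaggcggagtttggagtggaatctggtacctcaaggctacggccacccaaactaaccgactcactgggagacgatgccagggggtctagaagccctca
Cd22: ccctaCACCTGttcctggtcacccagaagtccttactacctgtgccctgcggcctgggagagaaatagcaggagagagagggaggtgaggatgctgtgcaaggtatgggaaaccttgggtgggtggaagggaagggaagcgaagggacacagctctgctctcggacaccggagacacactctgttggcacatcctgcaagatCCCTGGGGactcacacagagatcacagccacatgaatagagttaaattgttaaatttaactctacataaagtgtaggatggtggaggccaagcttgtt
Cr2: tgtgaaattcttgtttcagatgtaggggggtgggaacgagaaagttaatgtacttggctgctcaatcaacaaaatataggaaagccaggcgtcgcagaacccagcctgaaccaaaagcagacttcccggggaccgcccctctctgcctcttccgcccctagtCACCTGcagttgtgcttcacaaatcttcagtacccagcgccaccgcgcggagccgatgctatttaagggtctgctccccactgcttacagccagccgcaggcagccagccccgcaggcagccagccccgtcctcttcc
Cd79a held an E box and, on the opposite strand, an ETS motif, Cd22 an EBF core and an E box, and Cr2 an E box. Fcer2a had 3 windows, 1 of them with 2 E boxes, and the Pax5 window held none of the 4. Of 32851 mouse promoter windows of this length, 20.2% held the E box, 28.3% the ETS motif, 13.7% the EBF core and 1.74% the octamer, so most of these matches are common in promoters at large. A match is a run of letters and was not tested as a binding site.

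The 2 chains of the receptor's signalling pair showed the pattern that recurred in the others. Cd79a (probe set 1418830_at) read 7.62, 7.82, 8.59 and 8.43 on the control arrays, 8.94, 9.04 and 7.55 with fTyS, 7.58, 7.96 and 7.92 with SEW, and 7.06, 7.67 and 8.32 with FTY. After radiation it read 5.93, 7.77 and 8.18, with radiation+fTyS 8.91, 8.19 and 8.94, with radiation+SEW 7.66, 8.01 and 7.95, and with radiation+FTY 8.57, 8.76 and 8.36. The values of control, fTyS, FTY and radiation overlapped one another, while all 6 arrays of radiation+fTyS and radiation+FTY exceeded all 3 of radiation. Cd79b (1417640_at) read 9.13, 9.38, 9.84 and 9.67 in control and 7.74, 9.17 and 9.62 after radiation. With radiation+fTyS it read 10.27, 9.69 and 10.14, with radiation+SEW 9.01, 9.41 and 8.98, and with radiation+FTY 9.97, 9.89 and 9.57. Its lowest radiation+FTY array thus lay below the highest radiation array, whereas radiation+fTyS did not overlap radiation.

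The surface protein Ms4a1 (1423226_at) had the widest range of the 9 genes, 9.32-fold between the lowest and highest arrays. In control it read 9.47, 9.27, 9.49 and 9.92, with fTyS 10.89, 10.84 and 9.37, with SEW 9.89, 10.04 and 10.47, and with FTY 9.07, 9.55 and 10.58. Radiation alone gave 7.67, 9.35 and 9.66, radiation+fTyS 10.56, 10.25 and 10.29, radiation+SEW 8.96, 9.56 and 8.93, and radiation+FTY 10.31, 9.73 and 10.001. Both radiation+fTyS and radiation+FTY lay above radiation on every array, and radiation+SEW lay below SEW on every array.

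Cr2 (1425289_a_at) and Cxcr5 (1422003_at) followed the same arrays. Cr2 read 5.39, 6.88 and 7.63 after radiation, 8.15, 7.76 and 8.14 with radiation+fTyS, 6.89, 7.19 and 6.63 with radiation+SEW, and 8.09, 7.57 and 7.39 with radiation+FTY. Cxcr5 read 5.76, 7.04 and 7.39 after radiation, 8.19, 7.47 and 8.20 with radiation+fTyS, 7.04, 7.43 and 7.05 with radiation+SEW, and 7.96, 7.64 and 7.16 with radiation+FTY. For both genes the radiation+fTyS arrays were above all radiation arrays, but those of radiation+FTY overlapped them. The highest Cr2 value of the series, 8.54, was on FTY replicate 3, and the highest Cxcr5 value, also 8.54, on fTyS replicate 2.

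Fcer2a (1422122_at), Cd22 (1419768_at), Blk (1422775_at) and Pax5 (1454401_at) moved over narrower ranges, of 2.78-fold, 3.62-fold, 2.16-fold and 1.52-fold between the lowest and highest arrays. Fcer2a read 6.90, 7.50 and 7.75 after radiation and 8.37, 7.82 and 8.37 with radiation+fTyS, which did not overlap. Cd22 read 7.57, 8.52 and 8.92 after radiation and 9.27, 8.92 and 9.28 with radiation+fTyS, so that the lowest array of the second group lay just below the highest of the first. The Blk groups overlapped, with 7.16, 7.58 and 8.13 after radiation against 8.13, 7.79 and 8.27. Pax5, a nuclear factor with a low signal here (55.8 to 93.0), read 6.17, 6.41 and 6.40 after radiation, 6.56, 6.59 and 6.71 with radiation+fTyS and 6.77, 6.64 and 6.48 with radiation+FTY.

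**Figure D1:**
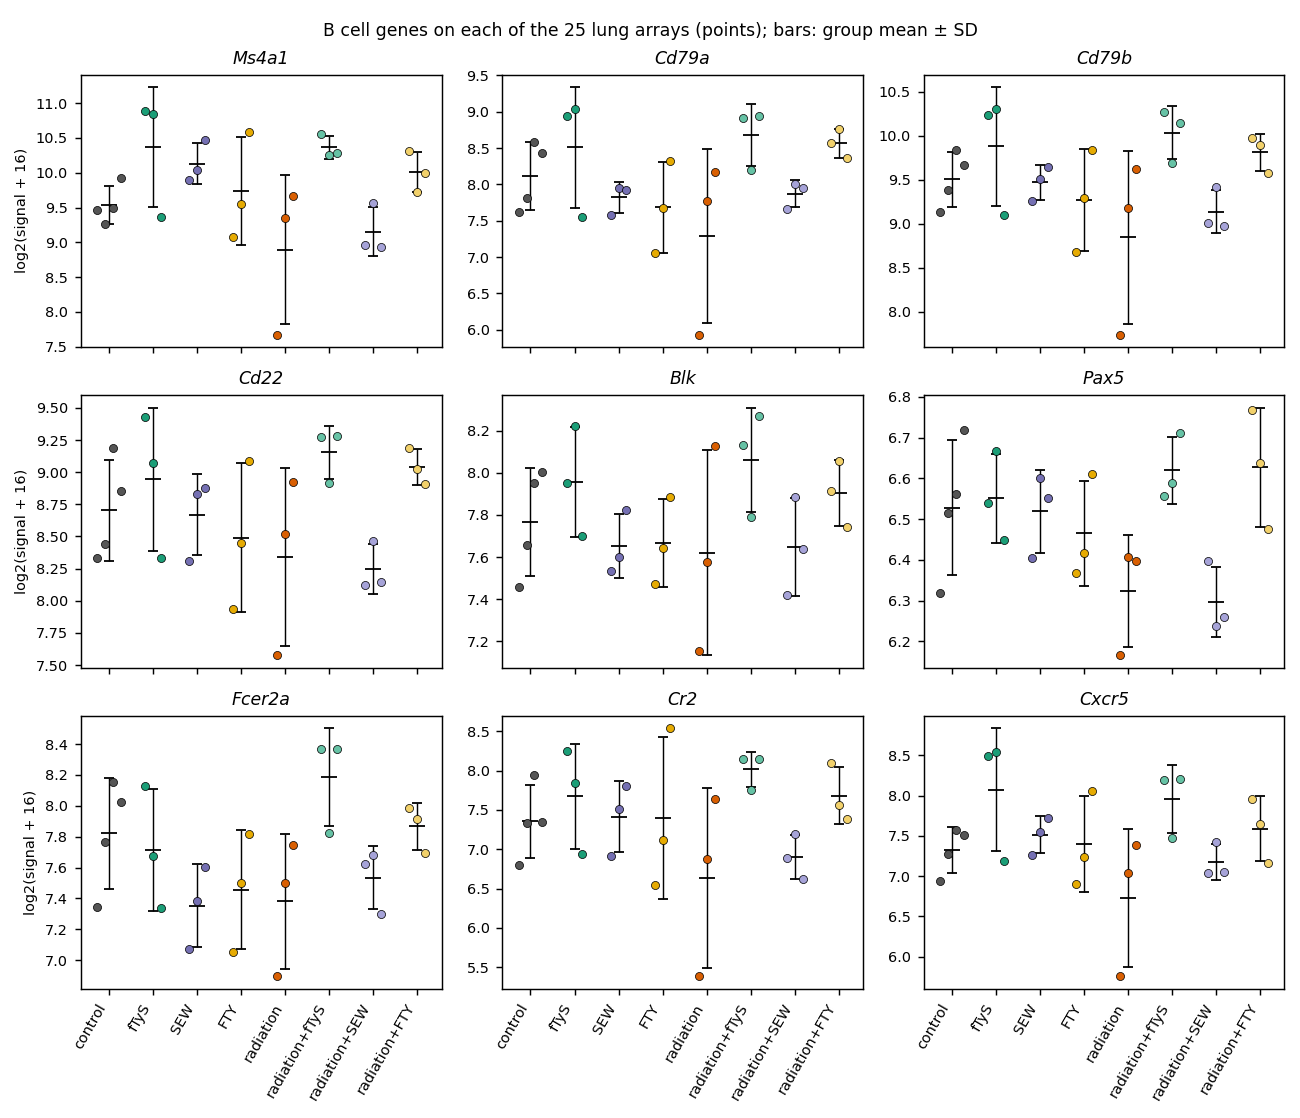
Each panel shows log2(signal + 16) of 1 B cell gene on each of the 25 arrays (points), in the 8 groups along the horizontal axis, with the group mean and SD as bars; the vertical scales differ between panels. The lowest point of every panel is radiation replicate 1, from 5.39 for Cr2 to 7.74 for Cd79b, and the radiation+fTyS points lie above all radiation points for 7 of the 9 genes.

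Ordered by group mean, radiation+fTyS ranked first for 6 genes, fTyS for Ms4a1 and Cxcr5, and radiation+FTY for Pax5. Radiation ranked last for 6 genes, radiation+SEW for Cd22 and Pax5, and SEW for Fcer2a. For Ms4a1 the order ran from fTyS at 10.37 ± 0.87 (SD, n = 3) and radiation+fTyS at 10.37 ± 0.17 (SD, n = 3) through SEW at 10.13 ± 0.30 (SD, n = 3), radiation+FTY at 10.01 ± 0.29 (SD, n = 3), FTY at 9.74 ± 0.77 (SD, n = 3) and control at 9.54 ± 0.28 (SD, n = 4) to radiation+SEW at 9.15 ± 0.36 (SD, n = 3) and radiation at 8.89 ± 1.07 (SD, n = 3). In every gene, each group overlapped the next one in the order on at least 1 array, so no step between neighbours exceeded the spread of the arrays.

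Radiation alone was compared with control to see what the exposure did. All 9 genes had lower means after radiation, from a difference of -0.82 ± 0.43 (SE of the limma fit) for Cd79a to -0.15 ± 0.19 for Blk, with a median of -0.59 against -0.0098 for all genes tested. None passed the test: 0 of 9 reached an adjusted p of at most 0.05 in limma, against 4.4% of all genes, and 0 of 9 had an unadjusted p under 0.05, against 16.8%. The adjusted p ran from 0.327 for Pax5 to 0.787 for Blk, and a fit with array weights, which gives each array its own variance, called none of the 9 and 8.8% of all genes. In bulk tissue, a smaller number of B cells and less RNA per B cell cannot be told apart. The difference rested on 1 array. Without radiation replicate 1 the median was -0.10, with values from -0.20 for Fcer2a to 0.09 for Blk. Without control replicate 4, differences ran from -0.72 for Cr2 to -0.07 for Blk, and 0 of 9 genes were called in any comparison with control.

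The compounds in unirradiated mice were compared with PBS to see what each did to the lung alone. Of the 9 genes, 8 were higher in mean with fTyS (median 0.32), 3 with SEW (median -0.03) and 3 with FTY (median -0.10). Ms4a1 and Cxcr5 had the largest differences with fTyS, 0.83 ± 0.42 (adjusted p = 0.353) and 0.75 ± 0.37 (adjusted p = 0.339), and fTyS replicate 3 lay within the control range for both. Fcer2a was the lowest relative to control with SEW, at -0.47 ± 0.24 (adjusted p = 0.185). In limma, 0 of 9 genes were called with any of the 3 compounds, where 0.178%, 14.6% and 2.73% of all genes were called with fTyS, SEW and FTY, and 0 of 9 had an unadjusted p under 0.05, against 15.0%, 30.9% and 18.5% of all genes. With array weights 2 of 9 were called with fTyS, Ms4a1 and Cxcr5, and none with SEW or FTY, where that fit called 15.1%, 34.2% and 7.41% of all genes. When any 1 array was left out, the fTyS median ran from 0.13 without control replicate 1 to 0.69 without fTyS replicate 3, and the SEW median from -0.16 without control replicate 1 to 0.07 without control replicate 3. The FTY median ran from -0.51 without FTY replicate 3, the array with thymus RNA, to 0.06 without FTY replicate 1.

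Irradiated mice given a compound were compared with radiation alone, the comparison that asks whether a compound altered the irradiated lung. With radiation+fTyS all 9 genes were higher in mean, by 1.47 ± 0.45 for Ms4a1 (2.78-fold), 1.39 ± 0.46 for Cd79a, 1.38 ± 0.50 for Cr2, 1.23 ± 0.39 for Cxcr5 and 1.19 ± 0.38 for Cd79b. Cd22, Fcer2a, Blk and Pax5 differed by 0.82 ± 0.33, 0.80 ± 0.25, 0.44 ± 0.21 and 0.30 ± 0.11. The median was 1.19, against 0.014 for all genes. For 7 of the 9 genes, all but Cd22 and Blk, every radiation+fTyS array was above every radiation array, an order found in 9.58% of all genes. In limma, 0 of 9 were called, with adjusted p from 0.132 for Ms4a1 to 0.390 for Blk, where 0.858% of all genes were called. All 9 had an unadjusted p under 0.05, as did 12.4% of all genes, and with array weights 8 of 9 and 9.43% of all genes were called. Since the 9 genes vary together from array to array, these counts are not 9 separate observations. In the fit with array weights, radiation+fTyS replicates 1, 2 and 3 had weights of 1.14, 0.255 and 3.54, and radiation replicates 1, 2 and 3 had 0.426, 2.53 and 1.34. The same radiation+fTyS weights entered the comparison with radiation+SEW.

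With radiation+FTY the 9 genes were again higher in mean than with radiation alone, by 1.27 ± 0.46 for Cd79a (adjusted p = 0.113), 1.12 ± 0.45 for Ms4a1 (adjusted p = 0.143) and 0.28 ± 0.21 for Blk (adjusted p = 0.426), with a median of 0.86. Ms4a1, Cd79a and Pax5 did not overlap between the groups, and 17.6% of all genes were higher on every array in this comparison. Leaving out an array can only raise or keep the number without overlap. It stayed at 3 without radiation replicate 1, the lowest array for every one of the 9 genes. It was 9 without radiation replicate 3, where 20.3% of all genes were higher on every array. Without radiation+FTY replicate 3 it was 7, where 21.9% were. In limma 0 of 9 were called, as were 3.02% of all genes, while 7 of 9 and 23.3% of all genes had an unadjusted p under 0.05. Array weights called none of the 9 and 9.65% of all genes. With radiation+SEW the median difference was 0.26, from -0.09 ± 0.33 for Cd22 to 0.58 ± 0.46 for Cd79a (adjusted p from 0.550 to 0.958). Again 0 of 9 were called in limma and with array weights, against 2.48% and 11.2% of all genes, and 0 of 9 had an unadjusted p under 0.05, against 17.3%. Neutrophil genes moved in the same comparisons. Relative to radiation alone, 6 of 8 were called lower with radiation+fTyS (list median -1.88), 3 of 8 with radiation+FTY (-1.13) and 8 of 8 with radiation+SEW (-2.11). In each of these, 0 of 8 were higher in mean. The 5 fat genes tested had medians of 0.39, 1.88 and 0.53 there, with 0 called. The part of either list in the B cell differences was not tested.

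These 3 comparisons share the radiation arrays, and the low values of radiation replicate 1 entered each of them. Without it the median difference was 0.64 for radiation+fTyS, 0.37 for radiation+FTY and -0.20 for radiation+SEW, and still no gene was called. The 9 genes remained above 0 with radiation+fTyS, from 0.21 ± 0.21 for Blk to 0.86 ± 0.40 for Ms4a1, and with radiation+FTY, from 0.05 ± 0.21 for Blk to 0.59 ± 0.40 for Cd79a. Radiation replicates 2 and 3 had means over the 9 genes of 7.80 and 8.19, against 8.28 to 8.71 with radiation+fTyS, 7.65 to 7.99 with radiation+SEW and 8.14 to 8.53 with radiation+FTY. The smallest adjusted p of any gene when 1 array was left out was 0.0507, without radiation replicate 3.

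**Figure D2:**
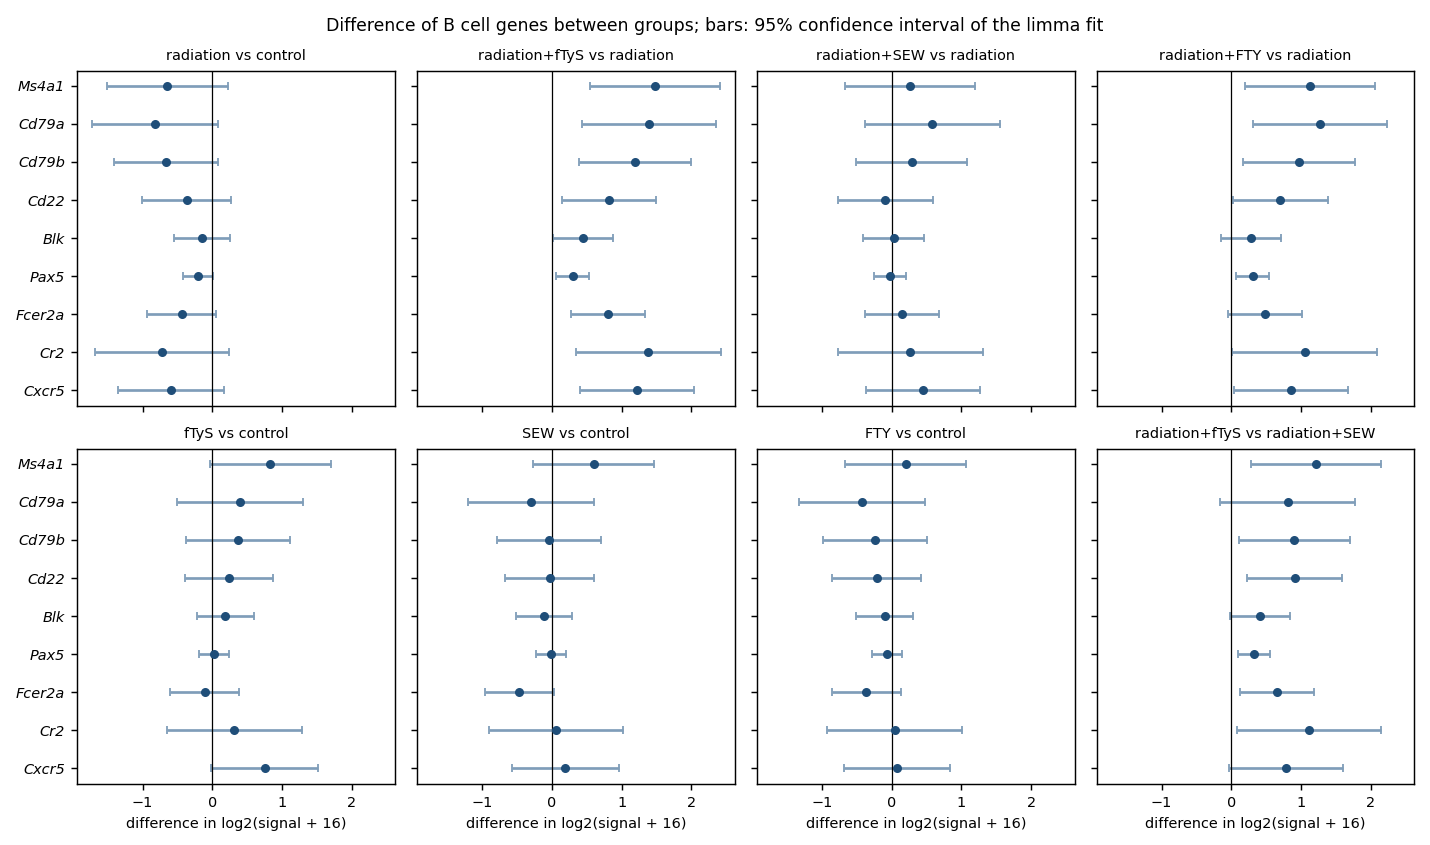
Differences of the 9 B cell genes in 8 comparisons, in log2(signal + 16) on the horizontal axis; points are limma estimates, bars their 95% confidence intervals, and the vertical line marks 0. All 9 intervals lie above 0 for radiation+fTyS against radiation and all include 0 for radiation against control, but no adjusted p was at most 0.05 in any panel.

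Radiation with a compound was also compared with the compound alone. The median was 0.16 in the fTyS pair, -0.34 in the SEW pair and 0.28 in the FTY pair. With any 1 array left out it ran from -0.09 (without fTyS replicate 3) to 0.33 (without fTyS replicate 1) in the fTyS pair and from -0.47 to -0.24 in the SEW pair. In the FTY pair it ran from 0.14 without FTY replicate 1 to 0.70 without FTY replicate 3, the thymus array. Ms4a1 was lower in irradiated than unirradiated SEW mice on every array, by -0.98 ± 0.45 (adjusted p = 0.136), and Pax5 by -0.22 ± 0.11 (adjusted p = 0.179). Cd79a was higher in irradiated than unirradiated FTY mice on every array, by 0.88 ± 0.46 (adjusted p = 0.215). The share of all genes without overlap was not computed for these pairs, so these orders are not read as particular to the B cell genes. In limma 0 of 9 were called in each comparison, against 0.456%, 17.7% and 14.1% of all genes for fTyS, SEW and FTY, and 0, 1 and 0 had an unadjusted p under 0.05, against 13.3%, 31.7% and 29.1%. Array weights called 0, 2 and 1, against 28.8%, 36.2% and 20.1% of all genes. A fit of the SEW and radiation+SEW arrays alone called Ms4a1, with an adjusted p of 0.0282, and 19.7% of all genes. The interaction asks whether the difference that radiation made depended on the compound. Its median over the 9 genes was 0.64 with fTyS as the compound, 0.21 with SEW and 0.91 with FTY, and the largest single value was 1.70 ± 0.63 for Cd79a with FTY (adjusted p = 0.105). Again 0 of 9 were called in limma, against 1.35%, 13.9% and 6.84% of all genes, with 1, 0 and 4 at an unadjusted p under 0.05, against 15.1%, 29.0% and 23.8%. Array weights called 0, 0 and 1, against 16%, 26% and 13.5% of all genes. Without radiation replicate 1 the interaction medians were 0.19, -0.23 and 0.38, and without FTY replicate 3 that with FTY was 1.21. Without radiation replicate 3 the medians with fTyS and SEW were 1.03 and 0.58.

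The 3 compounds were set against each other at the matched dose, 6 pairs in all, 3 without and 3 with radiation. Among irradiated mice, the phosphonate fTyS and the structurally unlike SEW differed most. All 9 genes were higher with radiation+fTyS than with radiation+SEW, by 1.21 ± 0.45 for Ms4a1 (95% interval 0.28 to 2.14; adjusted p = 0.318), 0.91 ± 0.33 for Cd22 (0.23 to 1.59; adjusted p = 0.306) and 0.32 ± 0.11 for Pax5 (0.09 to 0.55; adjusted p = 0.295), with a median of 0.81. For 8 of the 9, all but Blk, every radiation+fTyS array was above every radiation+SEW array, as were 7.04% of all genes. The median stayed between 0.68 and 1.03 when any 1 array was left out, and this comparison does not use the radiation group. Limma called 0 of 9 and 0% of all genes here, 6 of 9 and 10.9% of all genes had an unadjusted p under 0.05, and array weights called 6 of 9 and 8.51% of all genes. Higher in mean in this comparison too were 9 of 9 T cell genes (list median 0.26) and 6 of 6 natural killer genes (0.44). So were 6 of 6 monocyte and macrophage genes (0.11) and 7 of 8 neutrophil genes (0.14), but only 1 of 8 muscle and 0 of 5 fat genes. The part of these lists in the B cell differences was not tested.

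Radiation+FTY was likewise above radiation+SEW in all 9 genes, with a median of 0.68 (0.58 to 0.79 with 1 array left out) and no overlap for 7 genes, all but Blk and Cxcr5, against 7.32% of all genes. The differences ran from 0.26 ± 0.21 for Blk to 0.86 ± 0.45 for Ms4a1 (95% interval -0.07 to 1.79; adjusted p = 0.648). Limma called 0 of 9 and 0% of all genes, 2 of 9 and 8.01% of all genes had an unadjusted p under 0.05, and array weights called none of the 9 and 0.0309% of all genes. Between fTyS and FTY, which differ in the phosphonate group, the irradiated mice differed by a median of 0.22, from -0.01 ± 0.11 for Pax5 to 0.37 ± 0.39 for Cxcr5 (95% interval -0.45 to 1.19; adjusted p = 0.628). There 0 of 9 were called by limma or array weights, against 3.95% and 19.3% of all genes, and 0 of 9 had an unadjusted p under 0.05, against 20.8%. The median ran from 0.10 without radiation+FTY replicate 3 to 0.40 without radiation+fTyS replicate 2. These intervals allow differences of up to 1.37 for Cr2, so the result does not show that the compounds acted alike.

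Among unirradiated mice the median was 0.30 for fTyS against SEW, 0.45 for fTyS against FTY and -0.12 for FTY against SEW. With any 1 array left out, the first ran from 0.16 without fTyS replicate 1 to 0.63 without fTyS replicate 3. The second ran from 0.19 without FTY replicate 1 to 0.84 without FTY replicate 3, the thymus array. The third turned sign, from -0.46 without FTY replicate 3 to 0.11 without FTY replicate 1. The 9 genes were higher in mean with fTyS than with SEW and with FTY, with Cd79a at 0.69 ± 0.46 (95% interval -0.28 to 1.65) and 0.83 ± 0.46 (-0.14 to 1.79). Limma called 0 of 9 in each pair, against 1.55%, 0% and 0% of all genes, and 0 of 9 had an unadjusted p under 0.05, against 17.5%, 5.94% and 9.11%. Array weights called 5 for fTyS against SEW, 6 for fTyS against FTY and none for FTY against SEW, against 34.6%, 6.39% and 6.25% of all genes. In that fit fTyS replicate 1 had a weight of 5.21, against 0.485 and 0.437 for the other fTyS arrays.

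**Figure D3:**
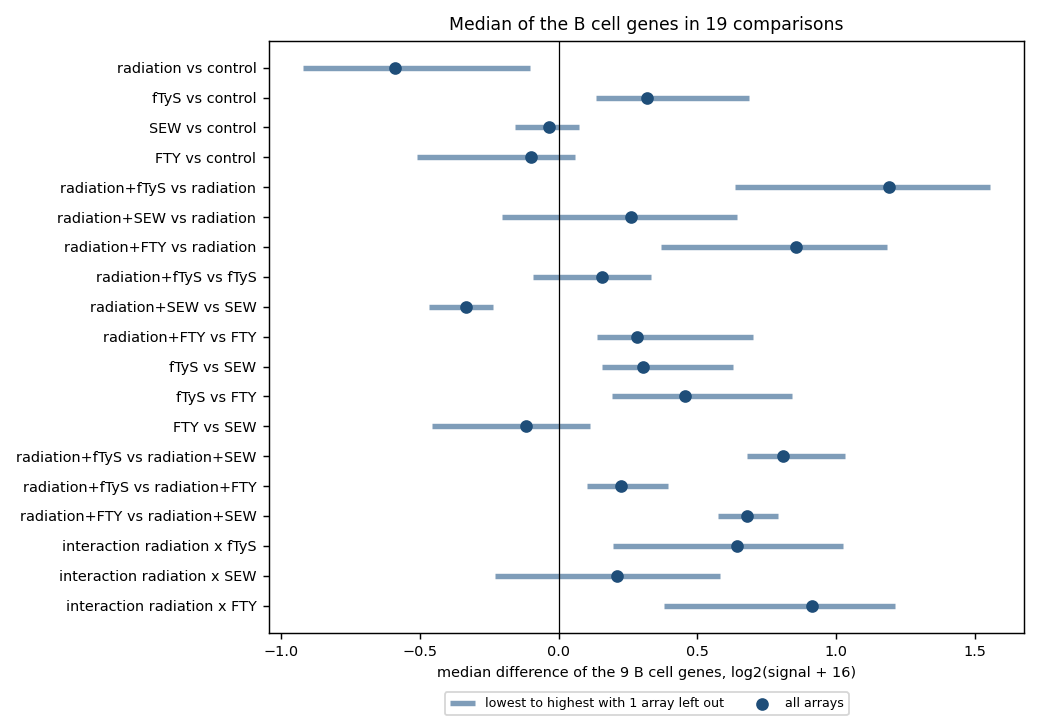
The median difference of the 9 B cell genes in each of the 19 comparisons, in log2(signal + 16) on the horizontal axis; dots use all arrays and bars run from the lowest to the highest median when 1 array is left out. The bars of radiation+fTyS and radiation+FTY against radiation+SEW run from 0.68 to 1.03 and from 0.58 to 0.79, while the bar of radiation against control runs from -0.92 to -0.10.

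The B cell genes were among the most variable in the lung between mice treated alike. Their SD within groups, from the fit over all arrays, was 0.65 for Cr2, 0.61 for Cd79a, 0.59 for Ms4a1, 0.51 for Cxcr5, 0.50 for Cd79b and 0.43 for Cd22, compared with a median of 0.13 over all genes tested. Fcer2a and Blk had 0.33 and 0.27. These 8 genes lay between the 88.7th and 97.8th percentile of all genes, and Pax5, at 0.13, on the 46.8th. For groups of 3 the 95% interval of a difference therefore reached 0.93 to either side of the estimate for Ms4a1 and 1.03 for Cr2. The share of each gene's variance that lay within groups was 45.4% for Pax5 to 67.3% for Blk, and the median of all genes was 54.1%.

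**Figure D4:**
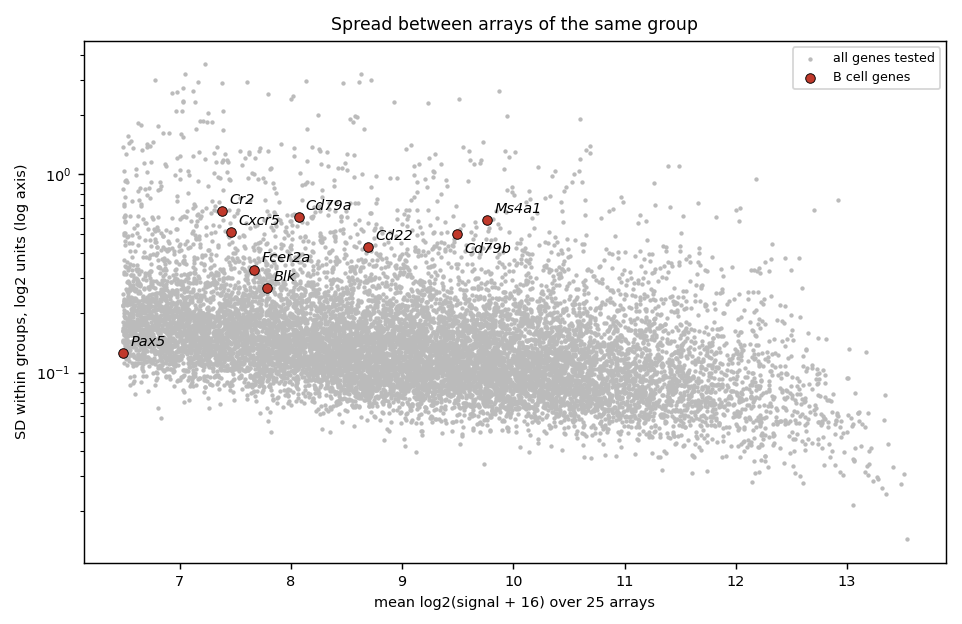
Each grey point is 1 of the 12937 genes tested, at its mean log2(signal + 16) over 25 arrays (horizontal) and its SD within groups in log2 units (vertical, log axis); red points are the 9 B cell genes. The SDs of 8 of the 9 genes, 0.27 to 0.65, lie above that of most genes, whose median is 0.13, and Pax5 lies at 0.13.

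The 9 genes varied together. Over the 25 arrays, Pearson r of the 36 pairs ran from 0.63 (Ms4a1 with Fcer2a) to 0.97 (Cd79a with Cd79b), with a median of 0.86. After the group means were taken out, the median was 0.88. Over the 24 arrays without radiation replicate 1, with group means kept, r ran from 0.52 (Ms4a1 with Fcer2a) to 0.96 (Cd79b with Cd22). A single component held 90.3% of the variance of the 9 genes over the arrays and 91.8% of that within groups. Cd79b followed the mean of the other 8 genes most closely (r = 0.99) and Pax5 least (r = 0.80). The genes also differed in how far they moved: per unit of the mean over the 9 genes, Cr2, Cd79a and Ms4a1 changed by 1.40, 1.39 and 1.39 units, Cxcr5 and Cd79b by 1.19 each, Cd22 by 0.97, Fcer2a by 0.70, Blk by 0.52 and Pax5 by 0.27. These points share the RNA of 1 lung per array, and any array-wide factor would enter all genes of that array.

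The genes with the closest pattern to the mean of the 9, out of 12928 others tested, were Fcmr (r = 0.99 over 25 arrays), the Fc receptor for IgM, and Bank1 (r = 0.99), a B cell scaffold protein. Next came Tnfrsf13c (0.98), the receptor for the survival factor BAFF, the transcription factor Spib (0.97), H2-DMb2 (0.97) of antigen loading onto MHC class II, and Bcl11a (0.95). Fcrl1 (0.93), Fcrla (0.92), Blnk (0.92), the linker downstream of the receptor, and Gm8369 (0.92) completed the 10. Of these, 7 were also in the 10 closest after the group means were removed, where Ighv14-2, Pou2af1 and B3gnt5 took the other places. In all, 24 of 12928 genes had r above 0.8, and the median over all genes was 0.0019. Without the 2 arrays of most extreme mean, radiation replicate 1 and FTY replicate 1, the 10 values lay between 0.85 and 0.98.

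Other genes of B cells were read from lists of surface proteins, receptor signalling and transcription factors. In the surface list the mean of 17 genes followed the 9 with r = 0.96 (Spearman 0.96), and r = 0.95 without the 2 extreme arrays. On their own, 8 of the 17 had r above 0.8, and 2, Cd24a and Cd40, had r below 0. The surface list's median difference was -0.23 for radiation against control, 0.51 for radiation+fTyS, -0.05 for radiation+SEW and 0.26 for radiation+FTY against radiation. The only call of that list in any of the 19 comparisons was Cd180, a Toll-like receptor homologue of B cells and macrophages. Cd180 fell by 0.43 ± 0.12 in radiation+SEW against SEW (adjusted p = 0.0164), where 17.7% of all genes were called. The mean of 13 transcription factors followed the 9 genes with r = 0.96 (Spearman 0.95), and r = 0.95 without the 2 arrays. On their own, only 3 of the 13 had r above 0.8, and the median r was 0.50. That list had median differences of -0.21 for radiation against control, 0.32 for radiation+fTyS, -0.0007 for radiation+SEW and 0.17 for radiation+FTY against radiation. Its calls with SEW against control were Irf4, higher by 0.72 ± 0.22, and Tcf3 and Irf8, lower, where 14.6% of all genes were called. Foxo1 fell by 0.22 ± 0.07 in radiation+SEW against SEW and rose by 0.24 ± 0.07 in radiation+FTY against FTY. Of all genes, 17.7% and 14.1% were called there. Irf8 was called in the interaction with SEW and Foxo1 in that with FTY, both with a positive value. These interactions called 13.9% and 6.84% of all genes.

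After radiation alone, 3 of the 16 genes of the receptor signalling list were called higher and none lower, against 4.4% of all genes called in either direction. Higher in mean were 11 of the 16. Many genes of this list are also expressed in myeloid cells. Its mean had r = 0.70 with the 9 genes (Spearman 0.76), and r = 0.80 without the 2 arrays. Only Bank1 and Blnk had r above 0.8, and Inpp5d, Fcgr2b and Cd81 had r below 0. Unlike the surface list, this list had a median difference of 0.09 for radiation against control. Against radiation its medians were -0.04 for radiation+fTyS, -0.17 for radiation+SEW and -0.04 for radiation+FTY. Of the 3 called after radiation alone, Fcgr2b, the inhibitory IgG receptor, rose by 0.63 ± 0.14 (adjusted p = 0.0104). Plcg2, a phospholipase below the receptor, rose by 0.44 ± 0.11 (adjusted p = 0.0186). Syk, a kinase that docks to the phosphorylated pair, rose by 0.58 ± 0.16 (adjusted p = 0.0422). Beside them, 8 of 8 neutrophil genes and 4 of 6 monocyte and macrophage genes were called higher in the same comparison, with medians of 2.53 and 0.81. The part of these lists in the 3 calls was not tested. Syk fell by 0.65 ± 0.17 in radiation+SEW against radiation (adjusted p = 0.0451), in which 8 of 8 neutrophil genes fell. Dapp1 and Pik3ap1, adaptors of phosphoinositide signalling, were lower with SEW than in control, by -0.40 ± 0.12 and -0.38 ± 0.13; they were 2 of 16 genes called, none higher, where 14.6% of all genes were called. In radiation+FTY against FTY, Plcg2, Btk, Pik3ap1 and Dapp1 were called higher, Plcg2 by 0.67 ± 0.11 (adjusted p = 0.00147). There 6 of 8 neutrophil genes were called higher too, and 14.1% of all genes were called. In radiation+SEW against SEW, Dapp1 rose by 0.43 ± 0.12, where 17.7% of all genes were called.

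Genes that place and keep lymphocytes in tissue were compared in a list of 14. The ligand of Cxcr5, Cxcl13, rose by 2.56 ± 0.70 with SEW against control (adjusted p = 0.0215), while Cxcr5 itself differed by 0.19 ± 0.37 (adjusted p = 0.752). S1pr1 rose by 0.80 ± 0.26 and Itga4 and Cxcr4 fell by 0.46 ± 0.12 and 0.53 ± 0.17 in that comparison. Of the 14 genes, 2 were called higher and 2 lower there, where 14.6% of all genes were called. S1pr3, the S1P receptor of vessel and other structural cells, fell by 0.42 ± 0.10 with FTY against control, where 2.73% of all genes were called. Under each compound it was higher with radiation than without, by 0.53 ± 0.10 among fTyS mice, 0.37 ± 0.10 among SEW mice and 0.44 ± 0.10 among FTY mice. It was not called in radiation against control. The interactions with fTyS, SEW and FTY called it, at 0.61 ± 0.14, 0.45 ± 0.14 and 0.53 ± 0.14, and 1.35%, 13.9% and 6.84% of all genes. In irradiated SEW mice Tnfsf13b, which encodes BAFF, rose by 0.53 ± 0.15 and Itga4 by 0.40 ± 0.13 relative to SEW alone. With S1pr3 they made 3 of 14 genes called, where 17.7% of all genes were called. S1pr1 fell by 1.01 ± 0.28 in radiation+FTY against FTY, and Itga4 was 0.73 ± 0.13 higher with fTyS than with SEW. Of all genes, 14.1% and 1.55% were called in these comparisons. Of the 14 genes, Ccr6 alone had r above 0.8 with the 9 B cell genes (r = 0.86), and S1pr1, S1pr2, S1pr3 and Tnfsf13b had r below 0.

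Against control, 2 of 9 immunoglobulin and plasma cell genes were called higher with fTyS, 5 with SEW and 3 with FTY. Higher in mean were 6, 7 and 7 of the 9, with list medians of 1.13, 1.18 and 0.53. The mean level of the list was 9.43 ± 0.10 in control (SD, n = 4), 10.61 ± 0.17 after fTyS, 10.72 ± 0.14 after SEW and 10.38 ± 0.19 after FTY (SD, n = 3 each). Its r with the 9 B cell genes was 0.31 (Spearman 0.32). With SEW, Jchain, which joins the units of IgA and IgM, rose by 3.001 ± 0.55 (adjusted p = 0.0022), Iglv1 by 3.07 ± 0.61, Ighm by 2.48 ± 0.48, Igha by 2.05 ± 0.47 and Mzb1 by 1.18 ± 0.29, and Sdc1, also made by epithelium, fell by 0.20 ± 0.04. Jchain and Iglv1 also rose with fTyS, by 2.87 ± 0.55 and 3.04 ± 0.61, and with FTY, by 2.46 ± 0.55 and 2.48 ± 0.61. Sdc1 fell with FTY too, by 0.19 ± 0.04 (adjusted p = 0.0200). In the same 3 comparisons 0 of 9 B cell genes were called, where 0.178%, 14.6% and 2.73% of all genes were called with fTyS, SEW and FTY. All 5 fat genes tested were also above control in mean there, with 0 called and list medians of 2.07, 2.18 and 1.69. The mean level of the fat genes was 8.79 in control, 10.74 with fTyS, 11.05 with SEW and 10.47 with FTY. Relative to SEW alone, radiation+SEW had lower Ighm, Jchain, Iglv1 and Mzb1, with Ighm at -2.38 ± 0.52 (adjusted p = 0.00449). Sdc1 was higher there, by 0.22 ± 0.04 (adjusted p = 0.00217), and 17.7% of all genes were called. Ms4a1, at -0.98 ± 0.45, was not called. The fat list had a median of -1.67 in that comparison, and its part in the immunoglobulin calls was not tested. The levels of immunoglobulin probe sets depend on which variable genes a mouse uses, and probe sets of related gene segments can share transcripts.

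The mean of 9 T cell genes tested had r = 0.42 with the B cell genes (Spearman 0.61), and r = 0.56 over 24 arrays without FTY replicate 3. Natural killer genes had r = 0.31 and follicular dendritic cell genes, of which only 2 were tested, r = 0.15; the latter cells also carry Cr2. The neutrophil mean was 10.34 ± 0.54 after radiation (SD, n = 3) and 7.87 ± 0.51 in control (SD, n = 4), and its highest array, at 10.80, was radiation replicate 1, the one with the lowest B cell values. Its r with the B cell genes was -0.26, and 0.0057 without radiation replicate 1 and FTY replicate 1. The monocyte and macrophage mean had r = -0.34, and -0.03 without the same arrays. After the group means were removed it was -0.52, or -0.30 without radiation replicate 1, and that of the neutrophil mean was -0.31, or -0.16. Muscle, fat and p53 target means had r of 0.10, 0.22 and -0.0048. Their part in the differences of the B cell genes was not tested beyond these values.

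**Figure D5:**
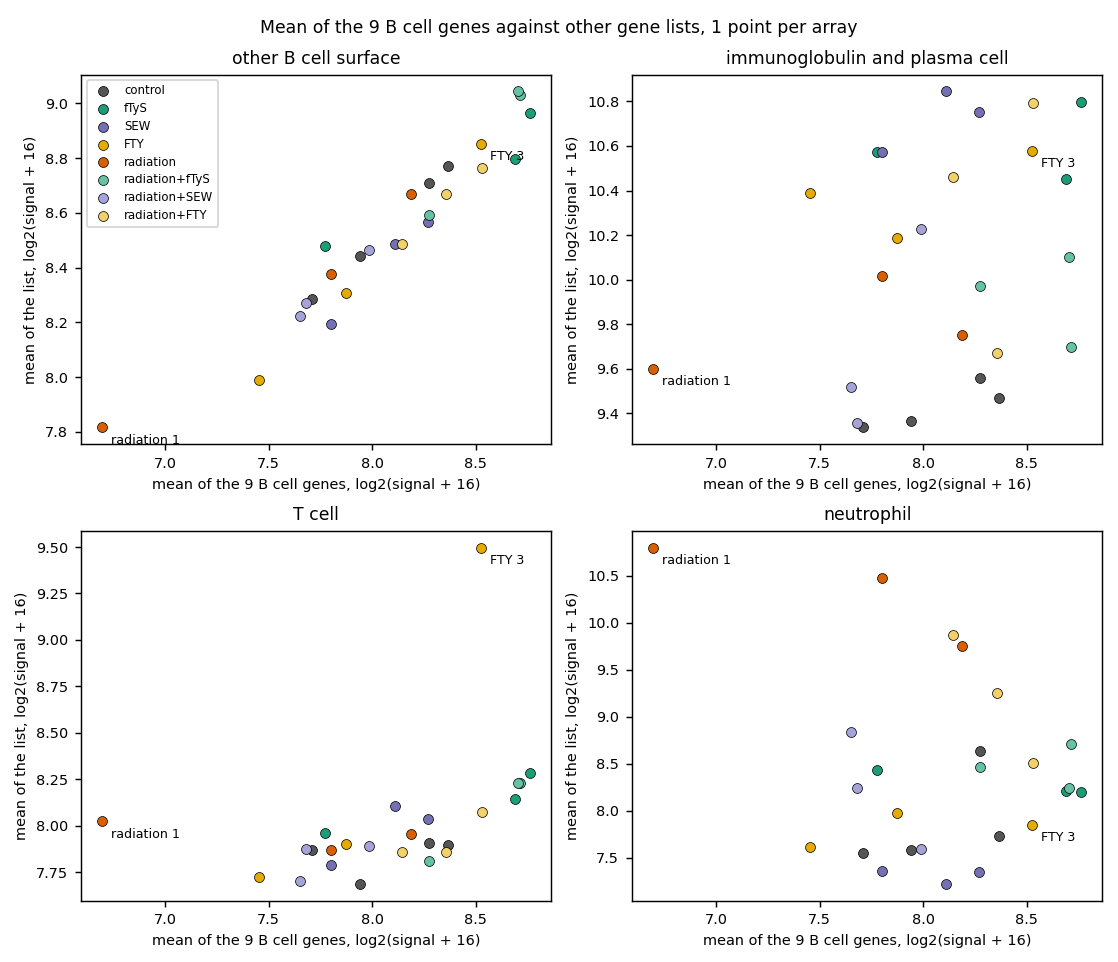
The mean log2(signal + 16) of the 9 B cell genes (horizontal) against that of the tested genes of 4 lists (vertical), with 1 point per array coloured by group. The surface list rises along a line (r = 0.96), whereas the immunoglobulin list (r = 0.31) is split by group, the T cell list has FTY replicate 3 far above the rest at 9.50, and in the neutrophil list radiation replicate 1 holds the highest value, 10.80, at the lowest B cell mean, 6.70.

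Of the 9 genes, 4 had a further probe set with the same symbol. That of Ms4a1 (1450912_at) followed the one used with r = 0.99 over 25 arrays and gave -0.62 for radiation relative to control, with 1.35 for radiation+fTyS relative to radiation. The further probe set of Cd22 (1419769_at) was dimmer, with signals between 32.6 and 106, and gave r = 0.87 and differences of -0.24 and 0.74. Those of Fcer2a (1451713_a_at; signals 6.55 to 42.7) and Pax5 (1421765_at; signals 3.72 to 27.0) had r of 0.50 and 0.09 with the ones used, and gave 0.09 and 0.05 for radiation against control, opposite in sign to the probe sets used. For radiation+FTY against radiation they gave -0.20 and -0.28, again opposite in sign, and for radiation+fTyS against radiation 0.75 and 0.29, on the same side. The remaining 5 genes rested on a single probe set.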

How the data were processed

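Total lung RNA, 6 µg per array, was hybridised to 25 Affymetrix mouse arrays after Trizol extraction and biotin labelling, per the labels' protocols. As deposited, each probe set has 1 linear signal intensity per array, between 0.53 and 19112. The submitters' processing notes name GCOS, the Affymetrix operating software; its version, the summary method and the scaling are not given in the sources used here. No further normalization was applied, since the median of all genes moved by at most 0.052 log2 units in any comparison.

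Of 45101 probe sets, 64 were controls. GEO's platform annotation gave 34945 a single symbol, 932 several and 9160 none; the last 2 kinds were left out. Intensities became log2(signal + 16). Genes with a mean above the 40th percentile of all probe sets were tested in limma 3.58.1 (R 4.3.3): a mean for each of the 8 groups, eBayes with a mean-variance trend and 17 residual degrees of freedom, with two-sided p adjusted by Benjamini-Hochberg in each of 19 comparisons over 12937 genes, called at an adjusted p of at most 0.05. SEs and 95% intervals come from this fit. Precision is limited by how many arrays there are. The pipeline was tested on simulated data.

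The 9 genes, the 14 lists (160 entries, 140 matched) and the comparisons were chosen with earlier results of these data known; the p53 list was added after. Named list genes are called genes, at most 4 of smallest p per list and comparison; Igha and Mzb1 with SEW, Iglv1 in radiation+SEW against SEW and list genes given for their r were named after their values were seen. The genes most like the 9 are the 10 of highest Pearson r with their mean. Alternatives were quantile normalization, median centring, pseudocounts of 1 and 64, averaging a gene's probe sets, no filter or one at the 60th percentile, array weights, eBayes without trend, a replicate block, a fit of only the groups compared, and omitting each array in turn. The labels give no source for a pairing by replicate number. Residual correlations of same-numbered arrays ran from -0.81 to 0.78, 7 of 25 arrays matched their own number best, and in 5 comparisons all 3 pairs exceeded 0.1.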

Additional observations from a re-analysis of the deposited data

How the results depend on the processing

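No B cell gene passed the threshold in the fit reported, and none did under quantile normalization, median centring, either pseudocount, either filter, the mean of all probe sets, eBayes without trend or when any 1 array was left out, where the smallest adjusted p was 0.0507. The replicate block changed no call, with 0 of 9 genes called in every comparison and a smallest adjusted p of 0.113. Array weights, which give each array its own variance, called 2 of 9 genes for fTyS against control, where 15.1% of all genes were called. They called 8 for radiation+fTyS against radiation (9.43% of all genes), 2 for radiation+SEW against SEW (36.2%) and 1 for radiation+FTY against FTY (20.1%). Between compounds they called 5 for fTyS against SEW (34.6%), 6 for fTyS against FTY (6.39%) and 6 for radiation+fTyS against radiation+SEW (8.51%). For the interaction of radiation with FTY they called 1 (13.5%). The cause of these calls was not tested. A fit of only the arrays compared called 1 of the 9 genes, Ms4a1 in radiation+SEW against SEW (adjusted p = 0.0282), where it called 19.7% of all genes. The filter at the 60th percentile left 5 of the 9 genes, a pseudocount of 64 left 8 and the mean of all probe sets 7. Array weights moved the median of fTyS against FTY from 0.45 to 1.14. The number of arrays, together with SDs within groups of up to 0.65, limits these comparisons.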
